A study of Solanum lycopersicum with 12 samples.

Results

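The genes described here form a stretch of tomato chromosome 1, taken as every gene in the deposited table whose identifier lies between Solyc01g006960 and Solyc01g007500. The table held 25 such genes out of 17887. The stretch had been picked out because levels in it were higher in the hybrid GxQ than elsewhere, so the GxQ levels below are a description and were not tested. They bore this out for 5 consecutive genes, Solyc01g007000 to Solyc01g007040, and not for the stretch as a whole, where GxQ stood above the mean of the other genotypes in 12 genes and below it in 13.

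RNA came from the mesocarp, the flesh of the fruit wall, of greenhouse tomatoes at the red ripe stage. The 4 genotypes were the inbred line Querubín FCA (Q), the inbred line Gema FCA (G) and their hybrids. Both lines are recombinant inbred lines that descend from cultivated tomato, Solanum lycopersicum, crossed with the wild Solanum pimpinellifolium. QxG and GxQ are the hybrids, made with Q or with G named first in the cross. Each genotype had 3 libraries, which the labels call biological replicates, each from 1 fruit. The labels do not say from which plant or harvest a fruit came, so these cannot be told apart from genotype.

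Reciprocal hybrids receive the same nuclear genes from their parents and differ in which line was the seed parent, from which plastids and mitochondria usually come in tomato. Inbred lines of such a cross carry stretches of either ancestor, so that neighbouring genes can differ between lines together. Neighbours can also be copies of one another, and reads that match several copies may be shared out among them by the counting. The files and the reference used here give the genes of this stretch by identifier only, so no function is stated for them, and no list of pathway genes was made.

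Library totals ran from 15207931 to 25320267 counts. Levels are given as CPM, the count a gene would have at the same scaled total in each library. They are not corrected for gene length, so levels of different genes are not compared. The first QxG library stood apart, with 0 counts in 1436 genes, where every other library had 31 to 338 such genes, and with 77 genes at 1 to 4 counts, so a 0 in it is not read as absence. Across genes, which are not independent replicates, the third Q library had r = 0.953 with the first and 0.957 with the second, and these had 0.987 with each other. Of 7 genes of ripe fruit flesh all were in the table, among them PSY1, the phytoene synthase that opens carotenoid synthesis, at 4411 to 9515 CPM in every library.

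The 5 consecutive genes were low or at 0 outside GxQ, and all 3 GxQ fruits had counts of each. Solyc01g007000 stood at 1.79, 0.930 and 1.59 CPM in the 3 GxQ fruits, at 0.237, 0.0814 and 0.110 CPM in Q, at 0, 0 and 0.117 CPM in G and at 0 in all 3 QxG libraries. Its neighbour Solyc01g007010 stood at 2.45, 1.04 and 1.30 CPM in GxQ, at 0.435, 0.122 and 0 CPM in Q, at 0, 0 and 0.156 CPM in G and again at 0 throughout QxG. For both genes the lowest GxQ fruit lay above the highest fruit of the other genotypes.

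The next 3 genes had the higher counts, which makes their values more precise. Solyc01g007020 stood at 5.27, 1.75 and 4.53 CPM in GxQ, at 0.198, 0.326 and 0 CPM in Q, at 0, 0 and 0.274 CPM in G and at 0 in QxG. Solyc01g007030 stood at 5.47, 2.41 and 4.25 CPM in GxQ, at 1.50, 0.977 and 0 CPM in Q, at 0, 0 and 0.352 CPM in G and at 0, 0 and 0.119 CPM in QxG. Here too no fruit of another genotype reached the lowest GxQ fruit, and the first and second Q fruits came nearest.

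Solyc01g007040 stood at 4.29, 2.85 and 4.76 CPM in GxQ, at 1.19, 0.977 and 0.110 CPM in Q, at 0, 0.202 and 0.274 CPM in G and at 0, 0.0605 and 0 CPM in QxG. Its groups did not overlap between GxQ and the rest. Relative to the mean of the other 3 genotypes, GxQ was 23.7-fold higher for Solyc01g007000, 20.2-fold for Solyc01g007010, 43.5-fold for Solyc01g007020, 12.3-fold for Solyc01g007030 and 12.7-fold for Solyc01g007040. These folds rest on small denominators and are a description only.

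**Figure D1:**
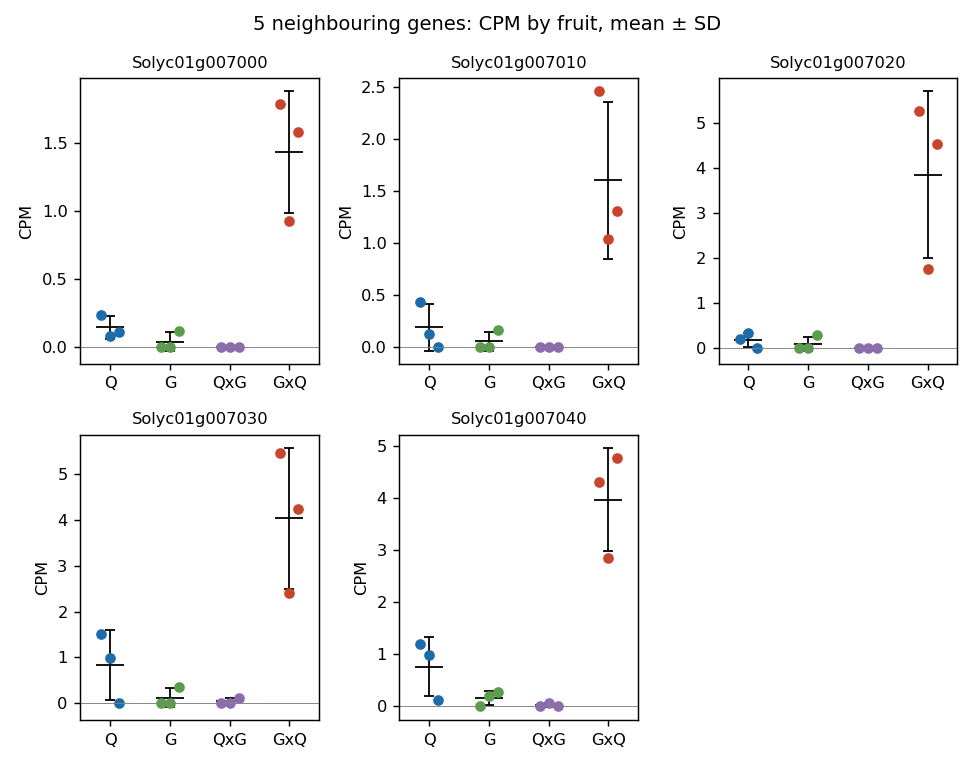
CPM (vertical axis, linear, a separate scale in each panel) of the 5 consecutive genes in each fruit of the 4 genotypes (horizontal axis), with points for single fruits and bars for the mean ± SD of 3 fruits. GxQ fruits lie between 0.930 and 5.47 CPM over the 5 panels, and in each panel all 3 lie above every other fruit.

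QxG, the reciprocal of GxQ, had almost no counts of these genes. Solyc01g007000, Solyc01g007010 and Solyc01g007020 had 0 counts in all 3 QxG libraries. Set at 3 counts over the group, QxG was exceeded by GxQ 27.2-fold, 30.6-fold and 73.1-fold. The 95% exact lower limits of the ratio, with 0 counts in QxG, were 21.6, 24.4 and 58.9. Without the first QxG library the folds were 16.05, 18.1 and 43.1, and the lower limits 12.8, 14.4 and 34.8. Solyc01g007030 had 226 counts in GxQ against 2 in QxG, a ratio of 115 with a 95% exact interval from 31.5 to 957. Solyc01g007040 had 220 counts against 1, a ratio of 224 with an interval from 39.8 to 8901. Without the first QxG library the 2 ratios were 68.0 (interval 18.6 to 565) and 132 (interval 23.5 to 5252). Limits and intervals cover counting error only, not the spread between fruits. They are a description and not a test, since these genes were picked out for their GxQ levels.

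Summed over the 5 genes, counts were 377, 164 and 290 in the GxQ fruits, 90, 61 and 4 in Q, 0, 3 and 30 in G and 0, 1 and 2 in QxG. The genes thus varied together between fruits of 1 genotype as well. In GxQ the second fruit was lowest for all 5 genes and the first highest for 4. In Q the third fruit was lowest for 4 genes, and in G the third fruit was highest for all 5. Over the 12 libraries, correlations of log2(CPM + 0.5) between pairs of the 5 genes ran from r = 0.937 to 0.985, against a median of 0.0652 over the 300 pairs of all 25 genes. Every pair shares the step between GxQ and the rest, so these correlations are not evidence apart from it.

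Markers of ripe flesh also differed between the genotypes, without following these levels throughout. The 7 ripe flesh genes, which besides PSY1 include PG2A and PL, enzymes that break down pectin, summed to 7511 to 11807 CPM in GxQ. The sums were 11645 to 30318 CPM in Q, 16972 to 18442 CPM in G and 13510 to 15042 CPM in QxG. Taken singly, PL stood at 576 to 696 CPM in GxQ and at 1859 to 5212 CPM elsewhere. EXP1, of the same list, stood at 175 to 246 CPM in GxQ and at 413 to 2060 CPM elsewhere. For both genes all GxQ fruits thus lay below all others. For PSY1, PG2A, ACS2, ACO1 and TomLoxC the GxQ fruits overlapped the rest. Within Q the highest sum belonged to the third fruit, the one with 4 counts over the 5 genes. Within GxQ the sums did not follow the order of the fruits in the 5 genes. QxG, with the fewest counts of these genes, had lower sums than G. The part of ripening state in the result was not tested.

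Summed markers of other tissues overlapped between GxQ and the rest. Of 24 genes of green tissue, which code for the Rubisco small subunit and chlorophyll a/b-binding proteins, 11 were in the table, and their sum was 121 to 282 CPM in GxQ against 106 to 296 CPM in Q, 251 to 615 CPM in G and 160 to 361 CPM in QxG. Of 3 epidermis genes, CER6 of wax synthesis and the cuticle regulator CD2 were in the table, with sums of 4.38 to 16.02 CPM in GxQ, 13.4 to 22.1 CPM in Q, 11.2 to 11.4 CPM in G and 5.02 to 9.73 CPM in QxG. CER6 stood apart in Q, at 8.18, 12.8 and 3.52 CPM, against 0.0980 to 1.01 CPM in G, 0 to 0.534 CPM in QxG and 0.109 to 0.614 CPM in GxQ. Q enters the comparisons tested below, except QxG against G, and the part of epidermis in their calls was not tested. In whole tissue, fewer cells of a type and less RNA per cell cannot be told apart.

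**Figure D2:**
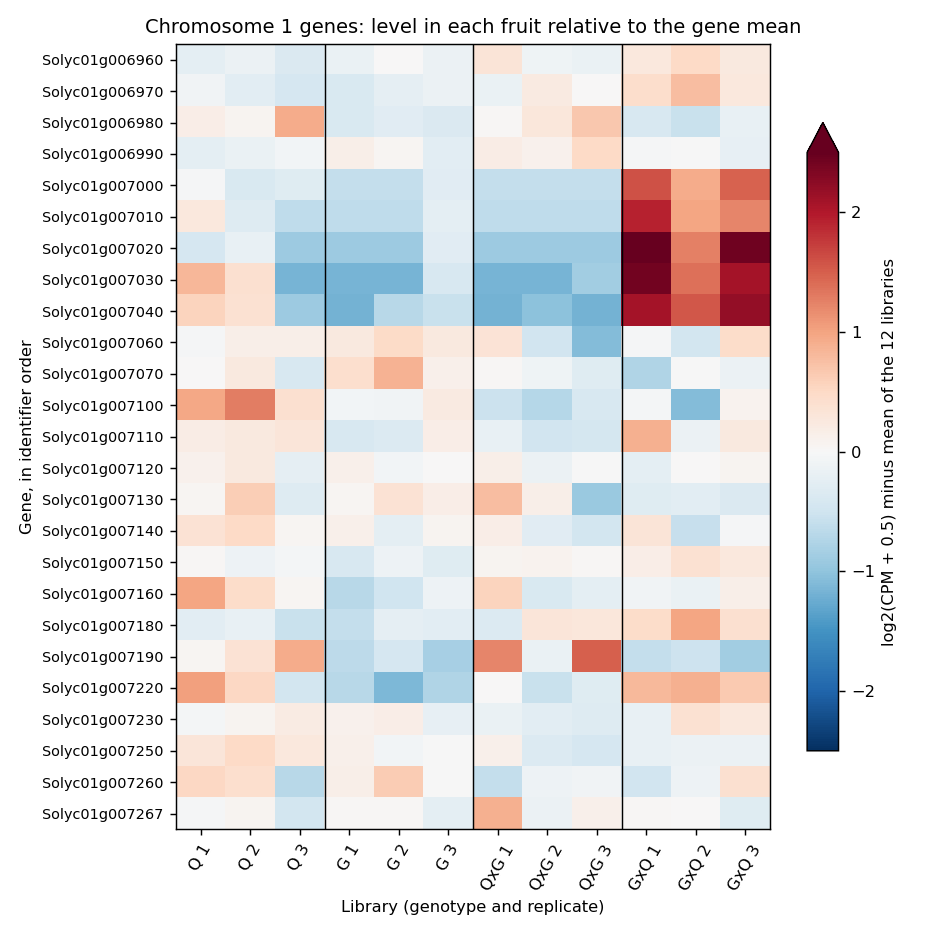
Colour shows log2(CPM + 0.5) of each of the 25 genes (rows, in identifier order) in each library (columns, by genotype) minus the gene's mean over the 12 libraries; values above the end of the colour scale take its last colour. The 5 rows from Solyc01g007000 to Solyc01g007040 are high in all GxQ columns, and the rows above and below them show no such block.

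Of the other 20 genes, 3 also had all GxQ fruits above all 9 others, by much smaller steps. Solyc01g006970 stood at 68.8, 86.2 and 60.5 CPM in GxQ, against 37.6 to 58.7 CPM elsewhere. Solyc01g007180 stood at 7.57, 11.1 and 7.19 CPM in GxQ and at 3.38 to 6.71 CPM elsewhere. Solyc01g007150 stood at 142, 163 and 152 CPM in GxQ and at 94.9 to 134 CPM elsewhere. The means in GxQ were 1.58-fold, 1.84-fold and 1.28-fold those of the other genotypes, and the gaps between the groups were narrower than the ranges within them. In all, 8 of the 25 genes had GxQ above every other fruit, beside 5.98% of all genes in the table, and 0 had it below every other fruit, beside 3.09%. Since the stretch was chosen on these values, nothing is read from that difference.

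Solyc01g007220 came close to the same pattern. It stood at 80.3, 84.8 and 71.5 CPM in GxQ, at 27.8, 20.7 and 26.7 CPM in G and at 45.5, 30.8 and 36.7 CPM in QxG. Its Q fruits spread widely, at 93.4, 65.3 and 32.9 CPM, and the first of them lay above all GxQ fruits. The end gene Solyc01g006960 stood at 69.3, 81.7 and 68.5 CPM in GxQ and overlapped QxG through the first QxG library at 71.8 CPM. Solyc01g007110 overlapped more widely, at 130, 63.3 and 82.6 CPM in GxQ against 50.2 to 86.6 CPM elsewhere.

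The lowest GxQ levels relative to the others belonged to Solyc01g007190, with a mean of 12.5 ± 1.57 CPM in GxQ (SD, n = 3), close to 12.6 ± 1.87 CPM in G. Solyc01g006980 was alike in this, at 12.7 ± 1.77 CPM in GxQ and 13.0 ± 0.503 CPM in G, with 22.6 ± 8.04 CPM in Q and 21.4 ± 4.94 CPM in QxG. Solyc01g007100 averaged 7.22 ± 2.92 CPM and Solyc01g007130 6.20 ± 0.201 CPM in GxQ, against 10.7 and 8.88 CPM over the other genotypes. In each of these 4 genes the GxQ fruits overlapped those of at least 1 other genotype.

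Solyc01g007070 stood at 92.2, 155 and 140 CPM in GxQ against 209, 287 and 169 CPM in G, without overlap, and its GxQ fruits overlapped those of Q and QxG. Its difference from the other genotypes was -0.41 on the log2(CPM + 0.5) scale. Solyc01g007120 averaged 39.2 ± 4.50 CPM in GxQ and 41.3 ± 3.04 CPM in G, and Solyc01g006990 36.6 ± 2.73 and 38.1 ± 5.44 CPM. Together with 7 others (Solyc01g007060, Solyc01g007140, Solyc01g007160, Solyc01g007230, Solyc01g007250, Solyc01g007260 and Solyc01g007267) these last genes had GxQ levels from -0.21 to 0.20 on the log2(CPM + 0.5) scale relative to the other genotypes. Over the other 20 genes as a group the median of this difference was -0.08, over all 25 it was -0.01, and over all genes in the table -0.01. Outside the 5 genes, the summed level of the stretch was 784 ± 29.3 CPM in GxQ, 747 ± 62.2 in Q, 707 ± 63.8 in G and 706 ± 55.9 in QxG.

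**Figure D3:**
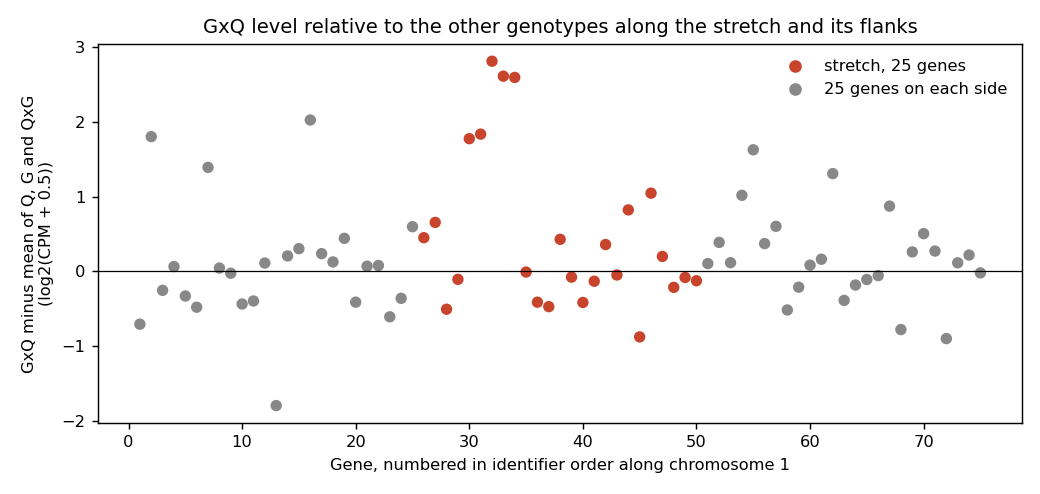
Each point is a gene in identifier order along chromosome 1 (horizontal axis), with the 25 genes of the stretch in red and 25 genes on each side in grey; the vertical axis gives the mean log2(CPM + 0.5) of GxQ minus the mean of Q, G and QxG. The 5 consecutive genes lie between 1.77 and 2.81, and the other 20 between -0.87 and 1.05.

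The 5 genes had sharp edges, while the stretch showed no step at either end. Next to the 5 genes lay Solyc01g006990, with a difference of -0.10 on the log2 scale, and Solyc01g007060, with -0.01. Outside the stretch, the nearest gene before it was Solyc01g006950, which stood at 0.920, 0.274 and 2.77 CPM in GxQ and at 2.57, 3.83 and 0.385 CPM in Q, so that the groups overlapped. Its difference was 0.60, beside 0.45 for the first gene of the stretch, Solyc01g006960. Before that, Solyc01g006940 and Solyc01g006930 were at -0.36 and -0.60. After the last gene of the stretch, Solyc01g007267, the next gene in the table was Solyc01g007740, at 117, 103 and 136 CPM in GxQ and 117, 120 and 130 CPM in QxG. Their differences were -0.12 and 0.11. Solyc01g007750 and Solyc01g007760 followed at 0.39 and 0.12.

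Among the 50 flanking genes, 25 on each side, 3 had all GxQ fruits above all others, beside 5.98% of all genes in the table. In 1 flanking gene they lay below all others, beside 3.09% of all genes. Solyc01g006850 stood at 12.9, 7.50 and 8.77 CPM in GxQ and at 1.27 to 3.36 CPM elsewhere, without a neighbour of the same pattern, and Solyc01g007780 and Solyc01g007930 averaged 4.10 ± 0.935 and 25.8 ± 1.56 CPM in GxQ. Solyc01g006810 stood lower, at 0.716, 0.821 and 2.43 CPM in GxQ against 3.15 to 8.24 CPM elsewhere. Over the whole table, with genes in identifier order on their chromosomes, 854 genes with GxQ above all others had no such neighbour, 88 stood in pairs and 7 in runs of 3. There were 2 runs of 4, 1 run of 5, which is the one described here, and 1 run of 6, from Solyc04g074410 to Solyc04g074470 on chromosome 4. The 88 and the 7 are numbers of runs.

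Genes elsewhere shared this pattern closely. The 10 genes outside the stretch whose log2(CPM + 0.5) followed the mean of the 25 genes most closely over the 12 libraries, among 15926 genes with a mean of at least 1 CPM, had r from 0.960 to 0.968. They lay on 5 chromosomes, and 1 of them, Solyc01g107980, was on chromosome 1. Solyc02g089440 stood at 80.7, 40.7 and 72.3 CPM in GxQ, at 37.5, 29.8 and 11.2 CPM in Q, at 14.3, 14.2 and 20.2 CPM in G and at 14.7, 9.13 and 10.4 CPM in QxG. It repeats the order of fruits seen in the 5 genes, with the second GxQ and the third Q fruit lowest in their genotypes. Solyc04g081840 stood at 32.4, 7.72 and 28.9 CPM in GxQ and at most at 2.85 CPM elsewhere. Set against the 5 genes alone, a choice made after seeing the values, the closest gene was Solyc03g083480 on chromosome 3 (r = 0.987), at 13.1, 4.87 and 10.6 CPM in GxQ, at 1.03, 1.91 and 0 CPM in Q and at 0 in QxG.

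Comparisons that leave GxQ aside were not used to choose the stretch, and these were tested across all 17887 genes with edgeR's quasi-likelihood test and Benjamini-Hochberg adjustment. They ask whether the parental lines differ here and whether the other hybrid departs from them. Few genes of the stretch passed, in shares near those of the whole table. A gene was called at an adjusted p under 0.05.

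Between the parental lines, Solyc01g007220 was the 1 gene called of 25, beside 7.31% of all genes. Its mean was 63.9 ± 30.3 CPM in Q against 25.04 ± 3.83 CPM in G (a log2 fold change of 1.35, SE 0.300, adjusted p = 0.0210), with each Q fruit above each G fruit. The call ended without any 1 of the first and second Q libraries or the 3 G libraries (adjusted p = 0.0590 to 0.0963), and it held without the third Q and the first QxG library. Without those doubted libraries together 4 genes were called, beside 16.5% of all genes, and by DESeq2 4, beside 14.8%. The 4 without the doubted libraries included Solyc01g007040, which was tested through its GxQ level.

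Several genes leaned the same way without passing. Solyc01g007100 had a mean of 17.1 ± 5.23 CPM in Q against 8.996 ± 1.15 CPM in G, Solyc01g007190 28.03 ± 9.05 and 12.6 ± 1.87 CPM, and Solyc01g006980 22.6 ± 8.04 and 13.0 ± 0.503 CPM (adjusted p = 0.0918, 0.0717 and 0.0679). Solyc01g007160, a gene of few counts, stood at 1.11, 0.611 and 0.330 CPM in Q and 0, 0.0673 and 0.235 CPM in G (adjusted p = 0.127). The 5 consecutive genes had log2 fold changes from 0.76 to 2.60 between Q and G and adjusted p from 0.169 to 0.743. Each of these 5 exceeded 0.5 CPM in at most 2 libraries outside GxQ. They were thus tested through their GxQ level, and nothing is read from their values here. Solyc01g007070 leaned towards G, with a log2 fold change of -0.53 (adjusted p = 0.199). The median over the 25 genes, which takes in the 5 consecutive ones, was 0.34. Over the other 20 genes it was 0.04, with 12 above 0 and 8 below, and over all genes 0.01.

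**Figure D4:**
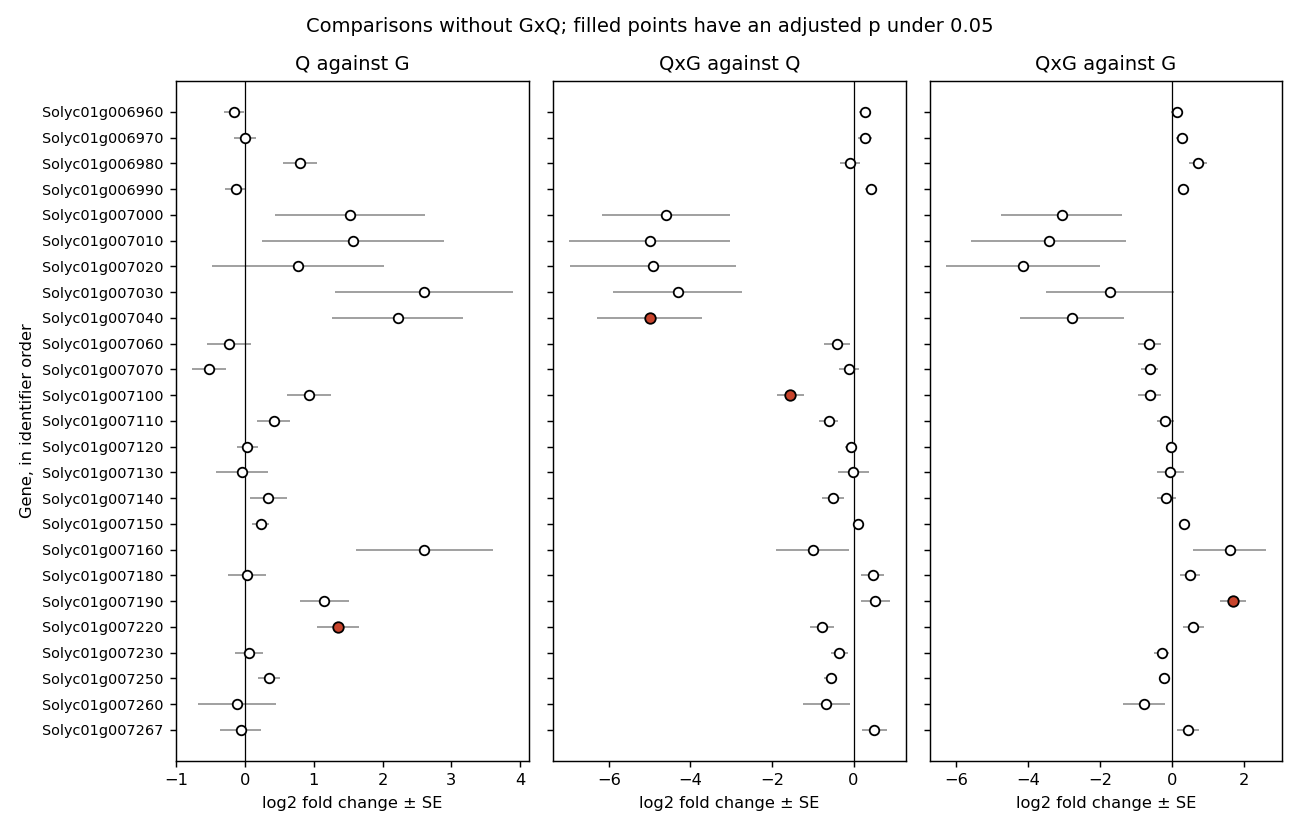
Horizontal axes give the log2 fold change with its SE, from edgeR, of the 25 genes (vertical axis, in identifier order) in 3 comparisons that do not involve GxQ; filled points have an adjusted p under 0.05. Solyc01g007220 is filled for Q against G, Solyc01g007040 and Solyc01g007100 for QxG against Q, and Solyc01g007190 for QxG against G; the fitted values of the 5 consecutive genes in QxG rest on 0 to 2 counts.

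Between QxG and Q, 2 of the 25 genes were called, both lower in QxG, beside 9.55% of all genes. Solyc01g007100 averaged 5.86 ± 0.722 CPM in QxG, against 17.1 ± 5.23 CPM in Q (a log2 fold change of -1.55, SE 0.324, adjusted p = 0.0169), and the fruits did not overlap. Solyc01g007040 had 1 count in QxG against 56 in Q (adjusted p = 0.0330), a ratio of 46.6 with a 95% exact interval from 8.02 to 1871 for counting error. Without the first QxG library the ratio was 27.5, with an interval from 4.73 to 1104. Outside GxQ, 2 libraries of this gene, the first and second of Q, exceeded 0.5 CPM, so it is among the genes tested through its GxQ level, and nothing is read from its call. The same holds for the other 4 of the 5 consecutive genes, while the remaining 20 genes exceeded 0.5 CPM in at least 3 libraries outside GxQ. The call of Solyc01g007040 ended without the first QxG library (adjusted p = 0.0756), also without either of the other QxG libraries, the first Q or the second Q library (0.0589 to 0.110). The call of Solyc01g007100 ended without the first Q, the second Q or the second QxG library (adjusted p = 0.0666, 0.0797 and 0.0514).

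Without the third Q fruit 5 genes of the stretch were called lower in QxG, Solyc01g007030, Solyc01g007040, Solyc01g007100, Solyc01g007220 and Solyc01g007250, beside 14.6% of all genes. Without that fruit and the first QxG library 6 were called, Solyc01g007030 and Solyc01g007040 again among them, beside 20.9%. The count thus rose over the whole table as well. Solyc01g007030 and Solyc01g007040 were tested through their GxQ level, so nothing is read from their calls in either setting. With all libraries, the other 4 of the 5 consecutive genes had adjusted p from 0.0940 to 0.152. Solyc01g007250 averaged 19.7 ± 4.35 CPM in QxG and 29.1 ± 2.75 CPM in Q and lay just past the limit (adjusted p = 0.0504).

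Between QxG and G, 1 gene was called, higher in QxG, beside 8.5% of all genes. Solyc01g007190 stood at 47.2, 17.5 and 56.9 CPM in QxG and at 12.4, 14.6 and 10.9 CPM in G (log2 fold change 1.69, SE 0.364, adjusted p = 0.0187). The QxG fruits were thus all above G but fell apart, with the second near the G level. The call ended without the first or the third G library or the third QxG library (adjusted p = 0.0721, 0.0850 and 0.0734). Its level was also raised in the third Q fruit, at 38.0 CPM against 20.4 and 25.7 CPM.

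Set against the mid-parent, midway between Q and G on the fitted log scale, QxG was higher in Solyc01g007190 and lower in Solyc01g007100, that is 2 of 25 genes beside 8.51% of all genes. The log2 fold changes were 1.11 (SE 0.297) and -1.08 (SE 0.289), with an adjusted p of 0.0398 and 0.0397. The first call ended without any of 7 single libraries of Q, G or QxG and the second without any of 8, with adjusted p up to 0.182 and 0.110. The mid-parent shares its libraries with the comparisons against Q and G, so these results are not independent of them. Against G alone, QxG did not pass for Solyc01g007100 (log2 fold change -0.62, adjusted p = 0.244).

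**Figure D5:**
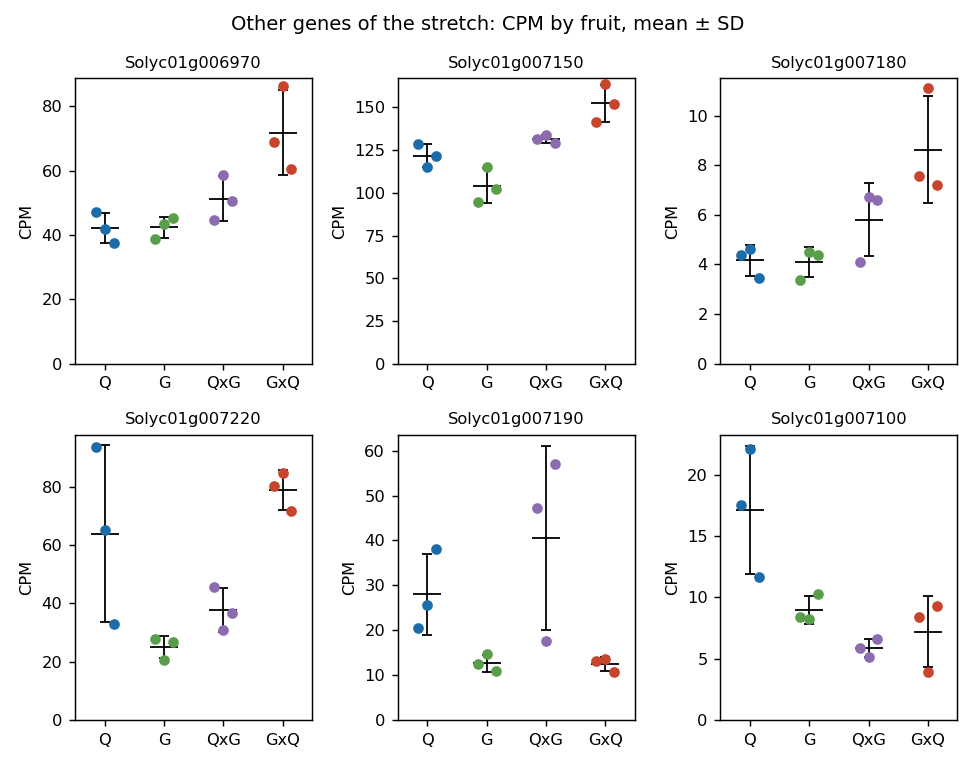
CPM (vertical axis, from 0, a separate scale in each panel) of 6 other genes of the stretch in each fruit of the 4 genotypes (horizontal axis), with points for single fruits and bars for the mean ± SD of 3 fruits. The upper row holds the 3 genes in which GxQ fruits lie above all others by small steps, such as Solyc01g007180 at 7.19 to 11.1 CPM; the lower row holds 3 genes called in other comparisons.

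Fruits of the same genotype differed in the other 20 genes to a moderate degree. The highest fruit was 1.38 times the lowest in Q, 1.26 in G, 1.48 in QxG and 1.37 in GxQ, as the median over genes with a count in each fruit. The widest spreads in Q, G and GxQ belonged to Solyc01g007260, a gene of about 1 CPM, and the widest in QxG, 5.70-fold, to Solyc01g007160, also of few counts. Solyc01g007130 differed 3.57-fold between QxG fruits. Solyc01g007220 differed 2.84-fold between Q fruits and Solyc01g007190 3.25-fold between those of QxG. Within GxQ, Solyc01g007020 among the 5 consecutive genes differed 3.01-fold between fruits.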

How the data were processed

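The authors deposited 1 table of whole-number read counts per gene for 12 libraries, not scaled to a common total. Per the submitters' processing notes, which give no roles, FastQC, fastp 0.21, HISAT2 2.1.0, featureCounts of Subread, edgeR and R 4.0.3 were used. The build and annotation, whether strand was used and how reads with several matches were counted are not given in the sources used. All columns matched a sample by name and 0 were left over. No library pair of a genotype held identical values.

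Groups came from the titles. Counts were scaled by TMM and tested with edgeR 4.0.16 (R 4.3.3, quasi-likelihood, 1 mean per genotype, all 12 libraries sharing the spread, 8 residual degrees of freedom). The filterByExpr filter removed 0 genes. Adjusted p-values cover all 17887 genes, with a threshold of 0.05. DESeq2 1.42.0 was an alternative. The procedure was tested on simulated data. SE was taken as the log2 fold change over the root of F. Differences of GxQ use log2(CPM + 0.5), and 3 counts were the floor. At that floor 1 library allows 0.117 to 0.202 CPM. Intervals are exact at 95%.

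The stretch, lists and tests were chosen with earlier results of these data known. Genes were named by a rule: the 8 highest in GxQ, the 4 largest and 4 smallest differences of GxQ, called genes, those at the edges with 3 neighbours on each side, and the 10 most alike outside. Others, such as Solyc01g007000, Solyc01g007180 and genes of the flanks, were named after their values were seen. Marker names are from general knowledge; of 10 symbols 10 lay on the chromosome of the identifier in the RefSeq table (assembly SLM_r2.1), which held 0 of the stretch's identifiers.

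Pairing by the labels' replicate numbers was checked by correlating deviations from genotype means. QxG and GxQ libraries of the same number had r = 0.164, 0.333 and 0.209. Each QxG library correlated best with the GxQ library of its own number. This pair was described and not tested here, and no tested pair of genotypes had every value over 0.1.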

Additional observations from a re-analysis of the deposited data

How the results depend on the processing

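The direction of every called gene held under each alternative that tested it (Solyc01g007040 was removed by the filter, and so not tested, at a minimum of 5 CPM and with only the groups compared), but calls did not. Genes of the stretch called for Q against G were 1 with all libraries and 3 with library totals only, beside 7.98% of all genes tested. They were 3 of 19 tested with only the groups compared (14.8% of all genes), 4 without the 2 doubted libraries (16.5%) and 4 by DESeq2 (14.8%). For QxG against Q, 2 became 1 of 20 tested with only the groups compared (1.73% of all genes). They became 6 without the doubted libraries (20.9%) and 5 by DESeq2 (17.3%). For QxG against G, 1 became 3 without the doubted libraries (15%) and 3 by DESeq2 (15.5%). For QxG against the mid-parent, 2 became 1 with library totals only (10.1%) and 1 of 20 tested with only the groups compared (8.07%). They became 6 without the doubted libraries (18.1%) and 4 of 24 tested by DESeq2 (16.3%). Some of these calls were of the 5 consecutive genes, tested through their GxQ level, and nothing is read from those. Leaving out 1 library gave 0 to 2, 0 to 5, 0 to 2 and 0 to 3. The replicate number as a block gave 2, 1, 1 and 0 calls, beside 7.38%, 8.39%, 7.96% and 7.78% of all genes. Same-numbered libraries of Q and G, Q and QxG, and G and QxG correlated at -0.244 to 0.132. Not every library matched its own number best. Counts over all genes moved too: 1308 for Q against G became 2553 with only the groups compared, 2939 without the doubted libraries, 2643 by DESeq2 and 335 to 2207 without 1 library. For QxG against Q 1709 became 297, 3739, 3085 and 311 to 2606, and 2663 with library totals only. For QxG against G 1521 became 1337, 2682, 2769 and 342 to 1993, and for the mid-parent 1522 became 1417, 3240, 2861 and 368 to 2536. The cause was not tested.

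The 5 consecutive genes had all GxQ fruits above all others under every scaling and without any 1 library. Genes with this pattern numbered 8 of 25, beside 5.98% of all genes, and 6 with library totals only, beside 3.99%. Without 1 library they numbered 7 to 9, beside 5.67% to 9.25% of all genes. The median difference of GxQ over the 25 genes ran from -0.06 to 0.12 without 1 library. Leaving out the doubted libraries for GxQ, chosen after seeing the data, gave 8 genes, beside 6.28% of all genes, and a median of 0.10. For the 5 genes the size of the difference depends on the pseudocount, at 3.36 to 4.54 with 0.1 CPM and 1.19 to 2.08 with 1 CPM. Depth limits what can be said of them outside GxQ, where most values rest on under 10 counts.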
